A study of Mus musculus with 36 samples.

Results

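The nuclear-encoded genes of the mitochondrial respiratory chain were followed in the blood of irradiated mice 7 days after exposure. The members were taken by name from the array: every non-control probe whose gene name begins with Nduf, Uqcr, Atp5 or Cox4 to Cox8, or is Sdha, Sdhb, Sdhc or Sdhd. These were 127 of 39429 probes and 93 of 31093 named genes, and 89 of them were among the 17342 genes bright enough to be tested. By complex, 44 of 45 members of complex I were tested, 4 of 4 of complex II, 8 of 8 of complex III, 15 of 18 of complex IV and 18 of 18 of complex V. The 4 left out were Cox7b2, Cox8b, Cox8c and Ndufa4l2, whose probes were significantly above background on 1, 11, 18 and 20 of 36 arrays. The name rule also took in assembly factors (Ndufaf genes), a pseudogene (Atp5c1-ps) and 2 genes now named otherwise in RefSeq, Atp5s (Dmac2l) and Atp5sl (Dmac2), while cytochrome c and cytochrome c1 fall outside it.

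The respiratory chain sits in the inner mitochondrial membrane. Complex I (NADH dehydrogenase) and complex II (succinate dehydrogenase) pass electrons to ubiquinone, complex III hands them to cytochrome c, and complex IV (cytochrome c oxidase) passes them to oxygen. Complexes I, III and IV pump protons, and complex V (ATP synthase) lets them back to make ATP. Most subunits are encoded in the nucleus and a few in mitochondrial DNA, and only the former are covered by the rule. Mature mouse red cells have lost their mitochondria, reticulocytes still carry some together with leftover mRNA, and platelets and white cells carry their own.

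The samples were whole blood RNA from 36 male C57BL/6J mice, 6 in each of 6 groups, each hybridised to its own one-colour array after globin mRNA had been depleted. Controls were sham handled. One group had 3 Gy of x-rays, and 3 groups had a mixed field of 3 Gy in all, in which neutrons made up 5%, 15% or 25% of the dose (0.15, 0.45 or 0.75 Gy). The last group had 0.75 Gy from the neutron beam, labelled 100% neutron although the source also emits photons. Because the 25% mixed field and the neutron group share a neutron dose of 0.75 Gy, their comparison shows the members with and without the x-rays that make up the rest of the mixed dose. The study asked whether gene expression in blood tells photon exposure from the mixture of photons and neutrons that a nuclear device would release. Levels are log2 signal minus the median of the array, and they compare a gene with itself across mice and not with other genes. A gene is said to have risen or fallen where limma gave p under 0.001 and a Benjamini-Hochberg adjusted p under 0.05 over all 17342 genes.

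The promoters of members named repeatedly are given here because chain genes share known control elements: nuclear respiratory factor 1 (NRF1), ETS-family factors such as GABP, and YY1 are textbook regulators of them. Any part of these elements in the members' changes was not tested. The 250 bases before the RefSeq transcription start are shown 5' to 3' on the gene's strand (build GRCm38.p6, all on the minus strand), and capitals mark matches on either strand to GCGC, any base, TGCGC (NRF1), to CCGGAAG (ETS) or to AAGATGGCG (YY1). Atp5j has 2 such starts, and the window shown was the first whose bases held a searched motif, so its matches were part of the choice. Cox6a1 (chr5:115348959-115349208), Uqcrh (chr4:116075071-116075320) and Cox6b2 (chr7:4753095-4753344) rose after every exposure, Atp5j (chr16:84834977-84835226) and Ndufs6 (chr13:73328483-73328732) rose after 3 Gy but not after neutrons, and Sdhd (chr9:50603850-50604099) fell after neutrons.
Cox6a1: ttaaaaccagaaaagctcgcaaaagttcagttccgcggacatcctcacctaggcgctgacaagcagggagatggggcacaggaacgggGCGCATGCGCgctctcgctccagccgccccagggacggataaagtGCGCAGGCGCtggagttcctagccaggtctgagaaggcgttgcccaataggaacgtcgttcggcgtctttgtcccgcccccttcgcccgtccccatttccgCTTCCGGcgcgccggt
Uqcrh: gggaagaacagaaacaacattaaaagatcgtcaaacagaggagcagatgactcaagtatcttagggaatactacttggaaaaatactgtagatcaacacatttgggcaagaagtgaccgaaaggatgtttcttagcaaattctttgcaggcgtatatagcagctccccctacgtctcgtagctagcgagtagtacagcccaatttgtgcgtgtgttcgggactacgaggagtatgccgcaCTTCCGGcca
Cox6b2: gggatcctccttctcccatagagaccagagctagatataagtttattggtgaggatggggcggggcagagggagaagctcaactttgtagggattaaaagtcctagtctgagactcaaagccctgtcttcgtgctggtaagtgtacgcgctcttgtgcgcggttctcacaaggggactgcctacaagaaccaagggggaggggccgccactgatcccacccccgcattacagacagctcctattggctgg
Atp5j: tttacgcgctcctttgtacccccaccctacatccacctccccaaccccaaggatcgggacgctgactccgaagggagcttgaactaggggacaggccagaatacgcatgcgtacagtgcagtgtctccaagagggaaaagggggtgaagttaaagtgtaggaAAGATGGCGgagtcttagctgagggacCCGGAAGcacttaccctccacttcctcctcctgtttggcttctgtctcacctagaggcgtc
Ndufs6: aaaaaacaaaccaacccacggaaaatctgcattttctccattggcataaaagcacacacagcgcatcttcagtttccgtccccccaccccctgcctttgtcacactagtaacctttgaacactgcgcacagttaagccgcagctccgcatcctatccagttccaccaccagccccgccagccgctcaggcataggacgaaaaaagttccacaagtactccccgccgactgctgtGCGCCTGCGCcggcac
Sdhd: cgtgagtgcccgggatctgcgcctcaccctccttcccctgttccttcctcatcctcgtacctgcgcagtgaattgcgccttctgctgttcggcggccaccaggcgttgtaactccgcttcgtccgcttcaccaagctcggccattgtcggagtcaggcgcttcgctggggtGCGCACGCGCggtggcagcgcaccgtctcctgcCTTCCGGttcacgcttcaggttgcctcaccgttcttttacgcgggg

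The motifs were counted over the whole windows of the RefSeq table, which also hold 50 bases after the start that are not printed here. Among the 74 tested members with a promoter in that table, 25.7% held the NRF1 motif, 23% the ETS motif and 10.8% the YY1 motif, against 5.19%, 9.93% and 1.64% of all 27025 genes in that table. Of the 20 such members that rose after every exposure, 45% held the ETS motif, 15% the NRF1 motif and 5% the YY1 motif. Of the 30 that rose after none, the shares were 13.3%, 33.3% and 13.3%. The motifs were not counted over all tested genes or over all genes that rose after every exposure. Ndufs6 also held the YY1 motif in the bases after its start, and Cox6b2, whose rise was among the steepest, held none of the 3 in its window. A match describes letters in the window and nothing about binding.

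Compared with controls, the chain genes as a list stood higher after all 4 exposures of 3 Gy. Of 89 members, 38 rose and 2 fell after x-rays, where 11.6% of all genes rose and 15.9% fell. After the 5% mixed field 49 rose and 1 fell, against a background of 8.09% and 13.1%. The 15% field raised 45 and lowered 1 (background 11.2% and 15.2%), and the 25% field raised 50 and lowered 1 (9.73% and 13%). The median log2 fold-change of the members was 0.67, 1.08, 0.98 and 1.18 in that order, while the median of all genes was -0.20, -0.12, -0.06 and -0.12. After 0.75 Gy of neutrons the list split: 25 members rose and 16 fell, where 14.4% and 19.3% of all genes did so, and the median of the members was 0.05 against -0.16. That split moved with the scaling of the arrays, to 38 and 14 with the upper quartile, 22 and 22 with quantile normalization and, over the 74 members in the authors' normalized table, 11 and 34. The background correction mattered more. With normexp in place of the image software's own correction and the same median centring, 1, 0, 14, 1 and 0 members rose. The members' median minus that of all genes then turned to -0.13 after the 5% field and -0.65 after neutrons. With quantile normalization added to normexp, a setting chosen after those values were seen, 37, 43, 41, 47 and 29 rose and 6, 1, 2, 1 and 26 fell. Whether a transcript rises because cells hold more of it or because cells rich in it make up more of the blood cannot be told apart in bulk blood.

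In each mouse the median difference of the 89 members from the controls' mean, minus that of all genes, gives 1 value for the list. It ran from -0.10 to 0.18 in controls (median -0.05). It was 0.38 to 1.29 after x-rays (median 0.95), from 0.87 to 1.61 after the 5% field (1.16), from 0.81 to 1.81 after the 15% field (1.08) and from 0.98 to 1.54 after the 25% field (1.28). In the neutron group it ran from 0.15 to 0.28 (0.24). Every mouse given 3 Gy therefore lay above every control and every neutron mouse, while the neutron mice overlapped the controls.

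**Figure D1:**
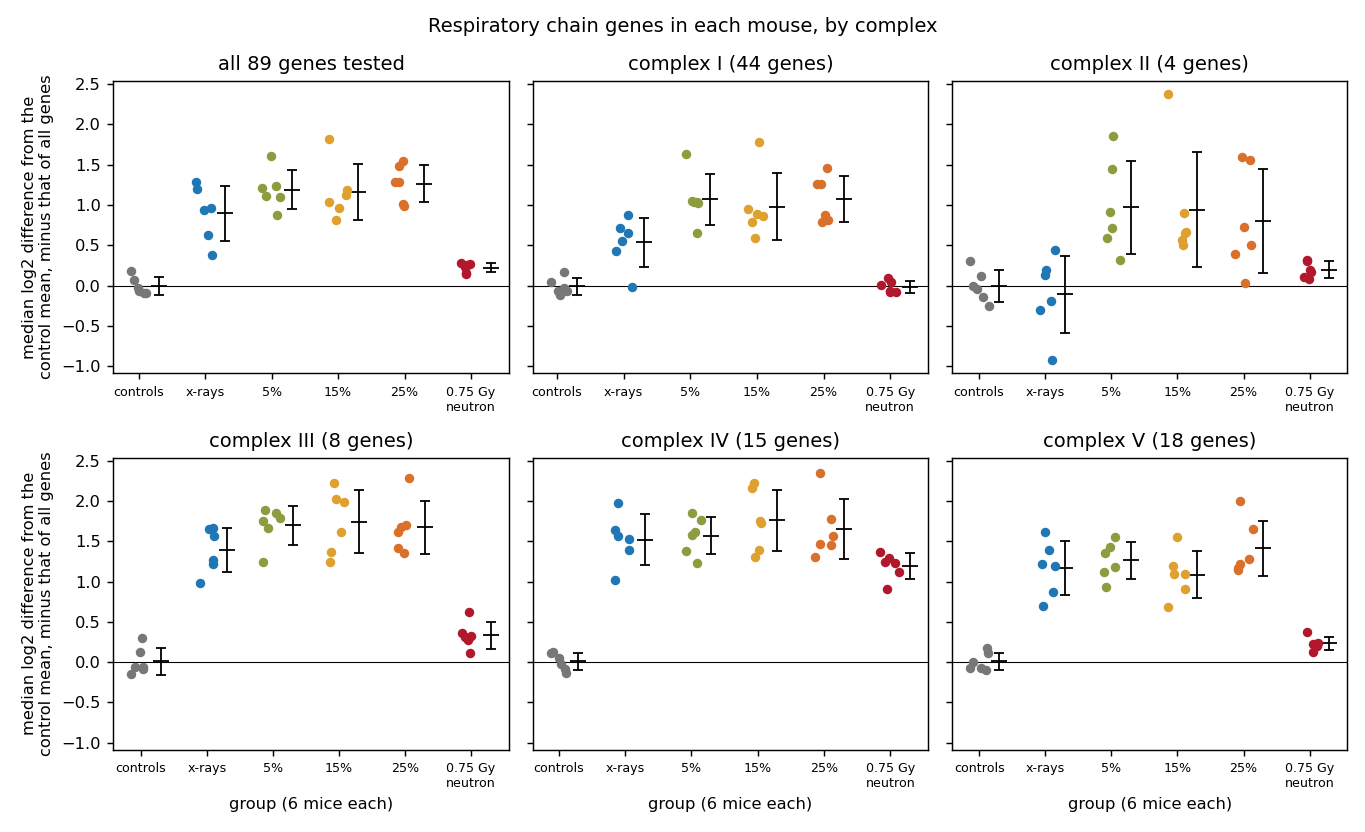
Median log2 difference of the members from the controls' mean, minus that of all genes, for all 89 members and by complex; each point is 1 mouse, and bars give mean and SD of 6 mice. Complex IV stayed high in the neutron group (0.90 to 1.36), whereas complex I lay within the controls' range there (-0.085 to 0.088).

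The complexes differed in how far they moved. Of all genes, 8.09% to 11.6% rose after the 3 Gy exposures, and 14.4% rose and 19.3% fell after neutrons. Complex IV had 10 of 15 members up after each 3 Gy exposure, with medians of 1.18, 1.44, 1.65 and 1.38 after x-rays and the 5%, 15% and 25% fields, and after neutrons 8 rose, none fell and the median was 1.05. Complex III had 5, 5, 5 and 6 of 8 up at 3 Gy, and 3 up with 2 down after neutrons. Complex V had 9, 11, 9 and 11 of 18 up at 3 Gy, and 8 up with 4 down after neutrons. Complex I had 14, 22, 20 and 23 of 44 up at 3 Gy but 6 up and 9 down after neutrons, where its median was -0.23. Those neutron shares, 13.6% up and 20.5% down, lay near those of all genes, whose median was -0.16. Complex II had 0, 1, 1 and 0 of 4 up at 3 Gy and 1 down after neutrons. An unadjusted p under 0.05 in limma was reached by 1, 3, 2, 3 and 1 of them after x-rays, the 5%, 15% and 25% fields and neutrons. Of 3469 genes in the brightest 20% of those tested, 2211, 1879, 2164, 2005 and 2269 reached it. Of the 13873 others, 8591, 6730, 7075, 6928 and 8460 did. These contrasts between complexes are counts and carry no test of their own.

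**Figure D2:**
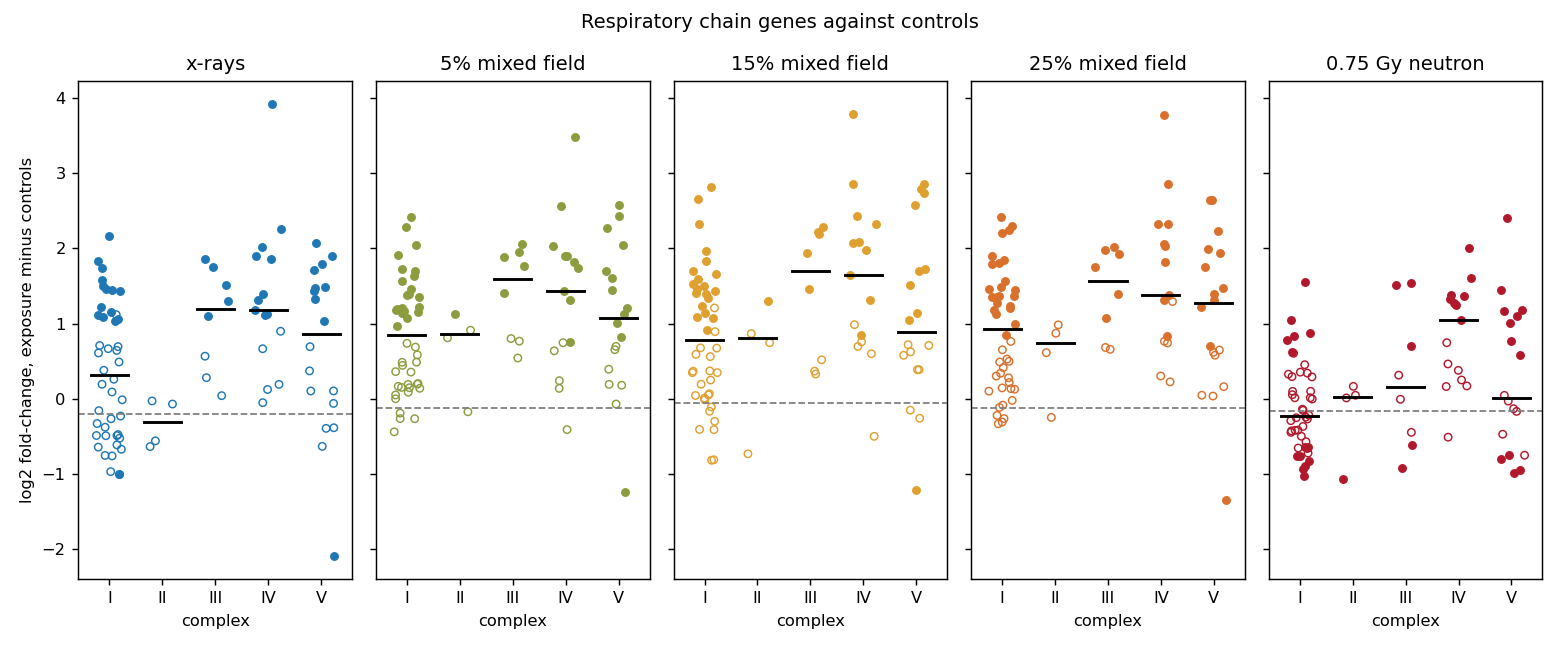
Log2 fold-change of each tested member against controls, by complex and exposure; filled points passed the test, bars mark the median of a complex and the dashed line the median of all genes. After x-rays the complex II median was -0.31 and those of complexes III and IV were 1.20 and 1.18.

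There were 23 members that rose after all 5 exposures, each compared with the same controls. They were 7 of complex IV (Cox6a1, Cox6b1, Cox6b2, Cox6c, Cox7a2, Cox7b and Cox8a), 7 of complex V (Atp5b, Atp5e, Atp5h, Atp5j2, Atp5k, Atp5l and Atp5s), 6 of complex I (Ndufa1, Ndufa2, Ndufa3, Ndufa4, Ndufb9 and Ndufb11) and 3 of complex III (Uqcr10, Uqcr11 and Uqcrh). Cox6b2 (3.48 to 3.92 log2 units at 3 Gy), Cox7a2 (2.25 to 2.86), Ndufa1 (2.16 after x-rays) and Atp5k (2.58 to 2.86 in the mixed fields) led them at 3 Gy, and Atp5l (2.40 on its brightest probe), Cox6b2 (2.00) and Cox7b (1.61) after neutrons. Most are small accessory subunits, with Atp5b, the catalytic beta subunit of the ATP synthase, as the chief exception. Ndufa4 was counted with complex I by its name, though its protein is now regarded as a subunit of complex IV. No member fell after all 5 exposures. The share of all genes that rose after all 5 was not counted. The Ndufa2 call after neutrons was lost without replicate 1 of the neutron group (log2 fold-change 0.60, adjusted p 0.0033).

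Cox6b2, the testis form of a complex IV subunit, had the largest fold-change of the members at 3 Gy. After neutrons it came second, by brightest probes, to Atp5l, a small ATP synthase subunit that rose 5.27-fold (SE 0.14 log2). That Atp5l probe was placed on another chromosome than the gene, and the other kept Atp5l probes gave 1.20 to 1.80 log2 units. The level of Cox6b2 ran from 6.24 to 7.05 in controls (median 6.34), from 9.92 to 10.75 after x-rays (10.46) and from 8.27 to 8.64 after neutrons (8.45). After the 5%, 15% and 25% fields it ran from 8.64 to 10.49, from 9.57 to 10.75 and from 9.57 to 11.55, so that all irradiated mice lay above all controls. It rose 15.1-fold after x-rays (log2 fold-change 3.92, SE 0.20, limma adjusted p 1.33e-07), 11.2-, 13.7- and 13.6-fold after the mixed fields, and 4.01-fold after neutrons (SE 0.15, adjusted p 3.06e-07). Its general counterpart Cox6b1 rose as well, as listed above.

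Cox7a2, a small complex IV subunit, had levels from 7.50 to 7.79 in controls (median 7.71), from 9.31 to 10.32 after x-rays (9.98) and from 8.93 to 9.20 after neutrons (9.02). Log2 fold-changes were 2.25 (SE 0.20) after x-rays, 2.56, 2.86 and 2.85 after the mixed fields and 1.37 (SE 0.11) after neutrons. No exposed mouse overlapped the controls. Uqcrh, the hinge protein of complex III, went from 10.10 to 10.45 in controls (10.31) to between 11.27 and 13.45 in the 3 Gy groups and between 11.75 and 12 (11.79) after neutrons, with fold-changes of 3.61 after x-rays and 2.91 after neutrons. Atp5b levels ran from 10.28 to 10.66 in controls (10.59), from 12.14 to 12.61 after x-rays (12.46) and from 11.89 to 12.10 after neutrons (11.96), a 3.72-fold rise (SE 0.15 log2) and a 2.73-fold rise (SE 0.11 log2).

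Cox8a, another small complex IV subunit, rose nearly alike after every exposure, from 1.28 (SE 0.11) after neutrons to 1.65 (SE 0.24) after the 15% field on the log2 scale. Its levels were 10.87 to 11.20 in controls and 12.21 to 12.47 after neutrons.

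A further 13 members rose after all 4 exposures of 3 Gy but were not called after neutrons: Ndufa7, Ndufa11, Ndufa12, Ndufa13, Ndufb6, Ndufb8, Ndufs1 and Ndufs6 of complex I, Uqcrc2 and Uqcrq of complex III, Cox7c of complex IV, and Atp5f1 and Atp5j of complex V. The share of all genes with that pattern was not counted. Ndufs1, the large iron-sulphur core subunit that takes electrons early in complex I, had levels of 5.87 to 6.57 in controls (median 6.18), 6.73 to 8.14 after x-rays (7.82), 7.19 to 8.61 across the mixed fields and 6.07 to 6.37 after neutrons (6.20). It rose by 1.49 (SE 0.24), 1.63, 1.70 and 1.56 log2 units at 3 Gy, and after neutrons the difference was 0.01 with a 95% interval from -0.28 to 0.31. Neutron mice lay within the range of the controls.

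Ndufb8, an accessory subunit of complex I, had levels of 7.52 to 7.78 in controls (7.63), 7.95 to 9.70 after x-rays (9.18), 8.45 to 10.11 across the mixed fields and 7.37 to 7.47 after neutrons (7.41). Uqcrq, a small complex III subunit, had levels of 8.30 to 8.97 in controls (8.72), 9.56 to 10.61 after x-rays (10.26), 9.99 to 11.64 across the mixed fields and 8.58 to 8.86 after neutrons (8.68). Uqcrq was chosen to be shown after its values were seen. Both rose after 3 Gy, by 1.46 (SE 0.26) and 1.51 (SE 0.21) log2 units after x-rays. After neutrons their differences were -0.22 (interval -0.44 to 0.00) and -0.01 (interval -0.29 to 0.28), and neither was called.

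**Figure D3:**
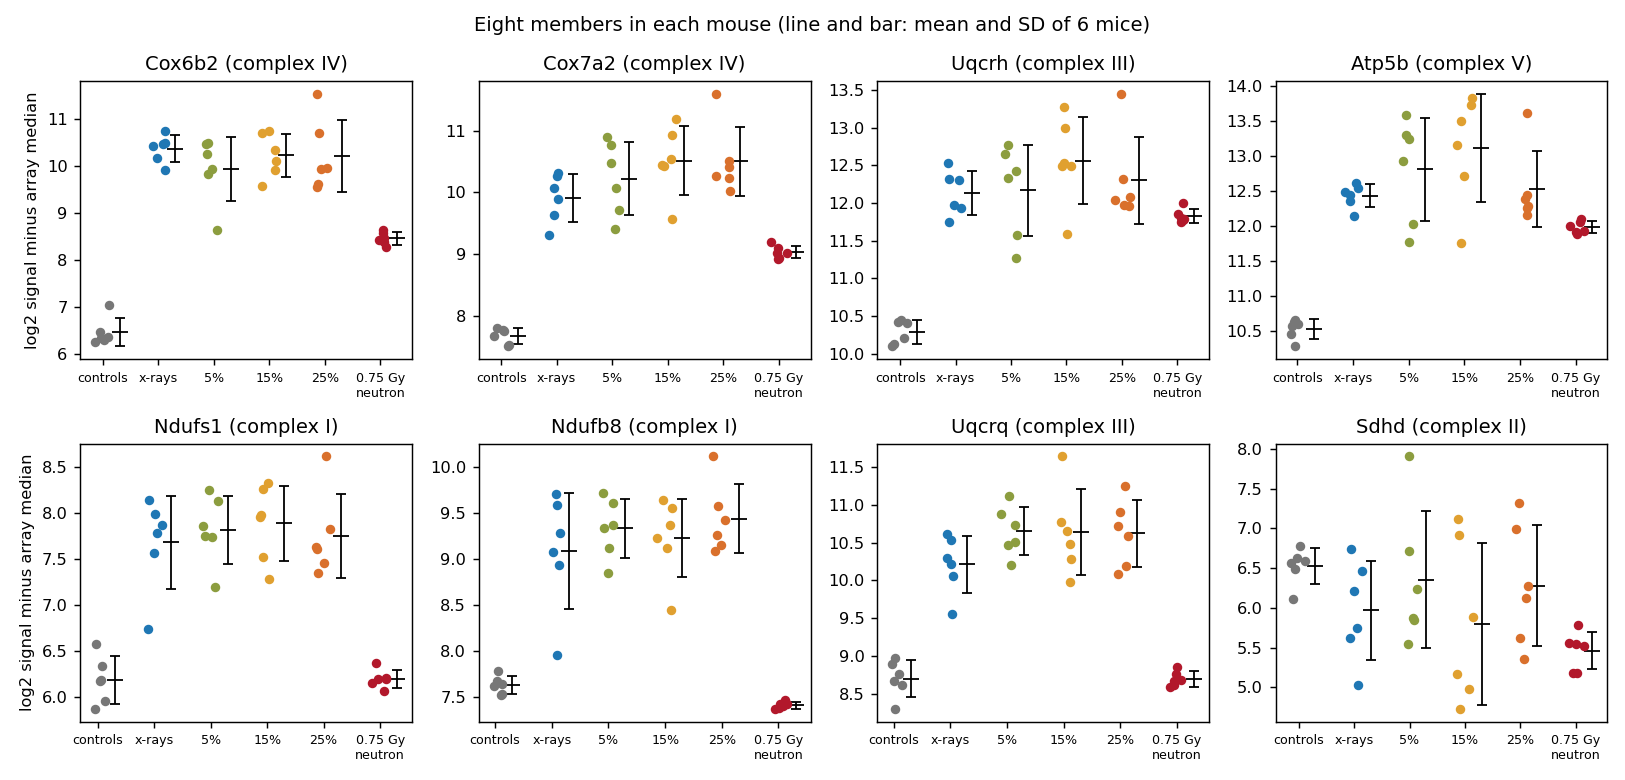
Level of 8 members in every mouse (log2 signal minus array median), by group, with mean and SD of 6 mice. Cox6b2, Cox7a2, Uqcrh and Atp5b lay above the controls in every exposed mouse, Ndufs1 and Uqcrq overlapped the controls after neutrons, Ndufb8 lay at 7.37 to 7.47 there, just under them, and Sdhd overlapped the controls after every 3 Gy exposure.

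After neutrons 16 members fell, 18% of those tested against 19.3% of all genes. Of these, 3 (Atp5o, Ndufb7 and Uqcrb) rose after at least 1 exposure of 3 Gy. Atp5o, the stalk subunit of the ATP synthase that confers oligomycin sensitivity, had levels of 5.49 to 5.87 in controls (5.76), 6.46 to 7.49 after the 25% field (6.97) and 4.60 to 4.99 after neutrons (4.74). It rose 2.02-fold and 2.33-fold after the 5% and 25% fields and fell 1.98-fold after neutrons (log2 fold-change -0.99, SE 0.12, adjusted p 1.47e-05). The only kept Atp5o probe was placed on another chromosome than the gene. The other 13 were Atp5c1-ps, Atp5d and Atp5g3 of complex V, Ndufa6, Ndufa9, Ndufa10, Ndufb3, Ndufs3, Ndufaf2, Ndufaf3 and Ndufaf6 of complex I, Uqcrc1 of complex III and Sdhd of complex II.

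Sdhd, a membrane anchor of succinate dehydrogenase, had levels of 6.12 to 6.78 in controls (6.58) and 5.18 to 5.78 after neutrons (5.53), without overlap, and fell by 1.07 on the log2 scale (SE 0.15, adjusted p 5.68e-05). Sdhb, the iron-sulphur subunit, rose after the 5% and 15% fields by 1.12 (SE 0.26) and 1.30 (SE 0.28) log2 units, and its difference after x-rays was -0.07 (interval -0.66 to 0.52). These values are those of its brightest probe. The other kept Sdhb probe gave 0.23 and -0.03 after the 5% and 15% fields, and -0.83 after neutrons, where the brightest gave 0.01. Sdha and Sdhc were called nowhere against controls on their brightest probes. For Sdhc that probe gave 0.91, 0.75 and 0.87 after the 5%, 15% and 25% fields and 0.17 after neutrons. The other kept Sdhc probe, nearly as bright, gave -0.14, -0.56 and -0.28 after those fields and -1.09 after neutrons.

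Uqcrc2, a core protein of complex III, rose by 1.10 (SE 0.19) after x-rays and 1.39 to 1.45 in the mixed fields, while Uqcrc1 was called only after neutrons, where it fell (-0.61, SE 0.14). Uqcrfs1, the Rieske iron-sulphur protein, was called in no exposure, with 0.04 (SE 0.25) after x-rays and 0.80 (SE 0.23) after the 5% field. Atp5a1, the alpha subunit of the ATP synthase, rose by 0.83 and 0.70 after the 5% and 25% fields and by 0.59 (SE 0.12) after neutrons, and Cox5a, a complex IV subunit, by 0.83 (SE 0.19) after the 25% field. The gamma subunit Atp5c1 was called in none of the 5 on its brightest probe, which was placed on another chromosome than the gene. Its other kept probe, also placed there, gave -0.265, -0.513, -1.32, -0.76 and -1.92 after x-rays, the 5%, 15% and 25% fields and neutrons. Of the 3 genes for ring subunit c, Atp5g1 and Atp5g2 were not called, and Atp5g3 fell after neutrons (-0.95, SE 0.15).

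Within complex I the 7 core subunits that carry the electron path had 1, 2, 2, 2 and 0 members up after x-rays, the 5%, 15% and 25% fields and neutrons. Of these, Ndufv2 rose in the 3 mixed fields (0.97 to 1.08), and Ndufv1, which lies on the path from NADH to ubiquinone, was called nowhere against controls. The 29 accessory subunits had 12, 19, 17, 20 and 5 up, and 5 of them fell after neutrons. That was 17.2% each way after neutrons, where 14.4% of all genes rose and 19.3% fell. The 7 Ndufaf assembly factors, which help build the complex and are not part of it, had 0 up in any of the 5 comparisons. Ndufaf1 fell after x-rays, a call lost in 8 of 12 fits that each left out 1 mouse, and Ndufaf2 (-1.03, SE 0.16), Ndufaf3 and Ndufaf6 fell after neutrons. The fit of Ndufaf7 lacked replicate 1 of the x-ray group, whose spot was not uniform. Unadjusted p under 0.05 in limma was reached by 6, 0, 0, 0 and 6 of the 7. Of 13873 genes outside the brightest 20%, 8591, 6730, 7075, 6928 and 8460 reached it.

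The tissue isoforms of complex IV behaved unalike. Cox7a1, the heart and skeletal muscle form of subunit 7a, rose after x-rays (1.18 log2 units, SE 0.20) and the 15% field (0.84), from 1.92 to 2.67 in controls to 3.10 to 4.02 after x-rays. Cox4i2, the lung isoform of subunit 4, rose after neutrons (1.24, SE 0.19), from 1.40 to 2.00 in controls to 2.28 to 3.41. Cox6a2, the heart and muscle form, was called in no comparison with controls. The general forms Cox6a1 and Cox6b1 rose in every exposure, Cox6b1 by 1.31 (SE 0.20) after x-rays, 2.32 after both the 15% and the 25% field and 1.05 (SE 0.15) after neutrons. Cox4i1, the general isoform of subunit 4, rose after x-rays (1.11, SE 0.16) and the 5% field (0.75, SE 0.18). Its levels after neutrons, 9.02 to 9.46, lay under the 9.49 to 9.88 of the controls, with a difference of -0.51 (SE 0.12) that missed the call.

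Atp5sl, now named Dmac2 and known for a part in the assembly of complex I, had the largest fall of the members after x-rays. It was not alone in direction there, where 60 of 89 differences were positive. Its levels were 5.39 to 6.47 in controls (5.98), 2.78 to 4.68 after x-rays (4.06) and 5.01 to 5.56 after neutrons (5.32). It fell 4.25-fold after x-rays (log2 fold-change -2.09, SE 0.29, adjusted p 9.6e-05) and 2.35-, 2.32- and 2.53-fold after the mixed fields, and the difference after neutrons, -0.75 (SE 0.19), missed the call. The calls at 5%, 15% and 25% were lost in 9, 9 and 8 of 12 fits that each left out 1 mouse.

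Against x-rays, the mixed fields moved few members. No member was called between the 5% field and x-rays, although 23 had an unadjusted p under 0.05 in limma, and 0% of all genes rose and 0% fell there. In the 15% field 1 member was higher than after x-rays, where 1.51% of all genes were higher and 2.42% lower. In the 25% field 2 members were higher, against 0.796% higher and 1.68% lower of all genes. Unadjusted p under 0.05 in limma was reached by 28 and 29 members in the 15% and 25% fields. Of the 3469 brightest genes 1248 and 932 reached it, and of the 13873 others 3565 and 3972. No test set the members' counts against these. The median difference of the members was 0.38, 0.42 and 0.50 in the 3 fields, against 0.10, 0.14 and 0.20 for all genes.

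The gene that passed in both was Cox5b, a zinc-binding complex IV subunit. Its levels were 7.12 to 7.63 in controls (7.43), 7.14 to 8.62 after x-rays (8.16), 8.29 to 9.70 after the 5% field (9.17), 8.56 to 10.35 after the 15% field (9.46) and 8.94 to 9.81 after the 25% field (9.52). It was 2.68-fold higher than after x-rays in the 15% field (adjusted p 0.0204) and 2.57-fold in the 25% field (adjusted p 0.0335), and 2.10-fold in the 5% field, which missed the call (adjusted p 0.102). Ndufc1, an accessory subunit of complex I, was the other member above x-rays in the 25% field. Cox5b lost its call in 8 of 12 leave-one-out fits in either field, and Ndufc1 in 11. In all, 7 genes (Cox5b, Ndufa5, Ndufb2, Ndufc1, Ndufs5, Ndufv2 and Ndufv3) rose in all 3 mixed fields and were not called after x-rays, which is no test of a difference. The share of all genes that did so was not counted. Ndufv3 rose on its brightest probe. Another kept Ndufv3 probe gave -0.76, -1.15 and -0.64 in the 5%, 15% and 25% fields, and its faintest gave -0.31, 0.17 and -0.31.

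The neutron group lay below the x-ray group in 26 members and above it in 1, Atp5sl, where 6.05% of all genes were higher and 5.93% lower. These were 12 of complex I, 4 of complex III, 6 of complex IV and 4 of complex V. Cox6b2 (-1.92, SE 0.17), Atp5o (-1.68), Ndufb8 (-1.68) and Cox4i1 (-1.62, SE 0.16) had the widest differences. The number of members called ran from 21 to 42 when 1 mouse at a time was left out, with 42 reached without replicate 5 of the x-ray group. The doses differ, 0.75 Gy against 3 Gy, so that radiation type and dose cannot be told apart here. Neutron and x-ray mice also shared no slide and no scan session, so these cannot be told apart from the exposure either.

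At the shared neutron dose of 0.75 Gy, 44 members were lower after neutrons than after the 25% mixed field, 0 were higher and 45 were not called (background 3.7% higher and 6.86% lower). Their median was -0.96 against 0.02 for all genes, and 84 of 89 differences were negative. By complex, 23 of 44 members of complex I were lower, 0 of 4 of complex II, 6 of 8 of complex III, 6 of 15 of complex IV and 9 of 18 of complex V. All 3 core members of complex III were lower, as were 19 of 29 accessory and 3 of 7 core members of complex I. Both groups were scanned in the same session, and on the slide that held 2 mice of each the members' median stood 1.06 below that of all genes. With slide as a block 22 members were called, and with normexp 0.

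The widest of these differences was in Atp5o, whose only kept probe was placed on another chromosome than the gene. Atp5o was 4.63-fold lower after neutrons (log2 -2.21, SE 0.20, adjusted p 1.94e-05). Next to it stood Atp5j, coupling factor 6 of the ATP synthase, whose levels were 8.41 to 9.52 after the 25% field (8.72) and 6.61 to 6.98 after neutrons (6.73), a 4.18-fold difference (SE 0.20 log2, adjusted p 2.61e-05). The controls' levels of Atp5j, 6.77 to 7.09, lay close to those of the neutron mice. Ndufb8 differed 4.06-fold (-2.02, SE 0.18), Uqcrq 3.80-fold (-1.93, SE 0.20), Cox6b2 3.38-fold (-1.76, SE 0.30), Cox5b 2.96-fold (-1.57, SE 0.20) and Ndufs1 2.92-fold (-1.55, SE 0.21).

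Members of the 23 that rose everywhere were not all apart between these groups. Cox8a differed by -0.04 (SE 0.22, interval -0.52 to 0.44), Uqcrh by -0.48 (SE 0.24, interval -0.996 to 0.04) and Cox6a1 by -0.49 (SE 0.24, interval -1.01 to 0.03), none of them called. Atp5b (-0.54, SE 0.23, adjusted p 0.104) missed the call as well.

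**Figure D4:**
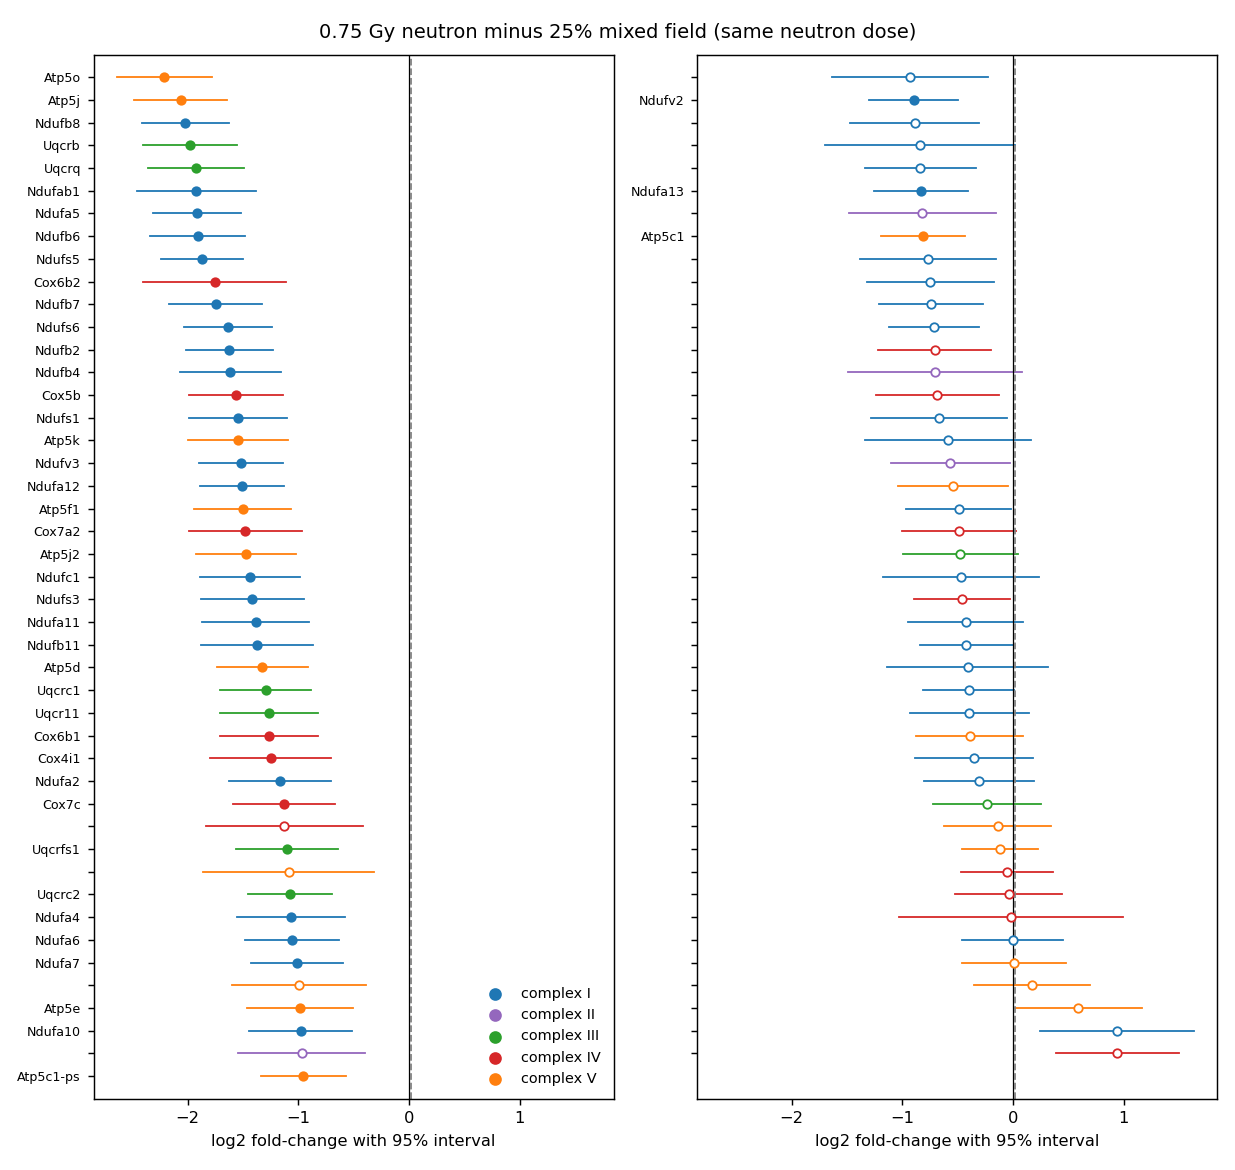
Log2 difference of each tested member between 0.75 Gy of neutrons and the 25% mixed field, with its 95% interval, ordered by size and coloured by complex; filled points passed the test and are named, and the dashed line marks the median of all genes (0.02). The 44 filled points all lie below 0, from Atp5o at -2.21 upward.

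Other genes of mitochondrial metabolism were counted in the same way, beside shares of all genes that ran from 8.09% to 14.4% higher and 13% to 19.3% lower. Of 31 assembly factors outside the name rule, 0, 1, 2, 1 and 3 rose and 4, 0, 0, 1 and 11 fell after x-rays, the 5%, 15% and 25% fields and neutrons, so that 9.68% rose and 35.5% fell after neutrons. Cox20, which handles a complex IV subunit during assembly, rose in all 3 mixed fields and after neutrons, while Atpaf2, an ATP synthase assembly factor, fell after x-rays (-1.13, SE 0.21), the 25% field (-1.15) and neutrons (-1.16). Cycs, cytochrome c itself, rose 3.37-, 3.91- and 3.85-fold after the mixed fields, and was 2.84-fold lower after neutrons than after the 25% field (SE 0.22 log2, adjusted p 0.000433). Of 9 regulators of mitochondrial gene expression, 5, 1, 5, 1 and 5 fell and 0 rose, among them Polrmt, the mitochondrial RNA polymerase (-1.48, SE 0.23, after x-rays and -1.26, SE 0.14, after neutrons), and Tfam, which packages mitochondrial DNA (-1.69, SE 0.29, after x-rays).

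In the citric acid cycle 1, 2, 2, 2 and 1 of 15 genes rose, 6.67% to 13.3% of the list, and 5 (33.3%) fell after neutrons. Ogdh, of the oxoglutarate dehydrogenase complex, rose after every exposure (1.03 to 1.95 log2 units), and Mdh2, malate dehydrogenase, rose in the mixed fields (1.39, 1.49 and 1.37). Between neutrons and the 25% field Mdh2 differed by -1.48 (SE 0.18, adjusted p 0.00015). Of 20 import, membrane and chaperone genes, 0, 1, 0, 1 and 0 rose and 1, 1, 1, 1 and 6 fell, and of 18 glycolysis genes 1, 1, 2, 3 and 2 rose (5.56% to 16.7%) and 1 fell after neutrons. Gapdh rose at 3 Gy, by 0.96 log2 units after x-rays and 1.84 after the 15% field, and Eno1 after the 15% and 25% fields and neutrons.

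Markers of blood cell types moved in the same comparisons. Of 9 B cell markers, 9, 9, 9, 9 and 8 fell, with mean levels of 6.13 to 6.95 in controls, 1.43 to 4.13 across the 3 Gy groups and 4.89 to 5.29 after neutrons. Of 11 red cell and reticulocyte markers, 9, 10, 10, 8 and 11 rose, with mean levels of 6.15 to 6.89 in controls, 7.62 to 9.83 across the 3 Gy groups and 8.08 to 8.56 after neutrons. Of 8 platelet markers, 0, 0, 3, 4 and 1 rose. Between neutrons and the 25% field 8 of 9 B cell markers were higher, 1 of 11 red cell markers was lower and 3 of 8 platelet markers were lower. Of 10 T cell markers 3, 3, 3, 2 and 0 fell, of 7 natural killer cell markers 0 were called, of 9 neutrophil markers 2 rose in every exposure and 0, 0, 1, 1 and 1 fell, and of 8 monocyte markers 1, 1, 1, 1 and 3 rose and 0, 0, 0, 1 and 0 fell. The defining markers Cd3d, Ncr1, Alas2, S100a8, Csf1r and Pf4 were well above background on all arrays. The part of these cell types in the members' results was not tested.

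The members are bright on these arrays: 69 of 89 lay in the brightest 20% of genes tested, where 27.2%, 19.5%, 28.5%, 23.9% and 28.8% of all genes rose after x-rays, the 5%, 15% and 25% fields and neutrons. Among members in that class 52.2%, 68.1%, 62.3%, 69.6% and 33.3% rose, and 59.4% were lower after neutrons than after the 25% field, against 10.7% of all genes there. The neutron share was thus near that of equally bright genes. The 20 members outside it had 2 up (10%) in each exposure, where 7.71%, 5.23%, 6.87%, 6.18% and 10.8% of all genes outside it rose, and 6 of them (30%) fell after neutrons, against 21.1%.

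The probes of 72 members lay on the gene's own chromosome in the design's mm9 positions, such as Cox6b2 at chr7:4703488-4703547, Ndufs1 at chr1:63190360-63190419 and Atp5b at chr10:127527255-127527314. Those of 8 (Atp5c1, Atp5j2, Atp5k, Atp5l, Atp5o, Cox7c, Ndufb11 and Ndufs5) were placed on another chromosome and 9 had no position. Whether another copy of the gene adds to their signal was not tested. In these 72, a subset chosen after the values were seen, 30, 40, 36, 40 and 21 rose and 2, 1, 1, 1 and 12 fell, and 33 were lower after neutrons than after the 25% field. Of the 23 that rose everywhere, 19 were among the 72.

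Scanning came in 4 sessions. Controls shared sessions with the x-ray mice and, for 1 mouse each, with the 5% and 15% fields, but none with the 25% and neutron groups, whose difference from controls cannot be told apart from the session. The x-ray mice shared none with the 25% and neutron groups either, so the differences of those groups from x-rays have the same limit. In the session that held 5 controls and 5 x-ray mice, the members' median stood 0.84 above that of all genes, as against 0.87 over all 12 mice. On the slide that held 1 control and 1 mouse each of the x-ray, 5% and 15% groups, it stood 0.78, 1.10 and 1.11 above. With the session as a block, 0 members rose after the 5% field and 1 after the 15% field, where only 1 pair of mice shares a session.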

How the data were processed

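Whole blood was drawn by cardiac puncture 7 days after exposure, and RNA from 36 mice was depleted of globin mRNA, labelled with Cy3 and hybridised to Agilent one-colour arrays, 1 mouse per array. The authors scanned the arrays with an Agilent scanner. They read the images with Agilent Feature Extraction 12.0.2 (version per the submitters' processing notes and the file headers). The deposited intensity values used here are the processed signals, already corrected for background by that image software. The authors also deposited a table of log2 values, median normalized and filtered in BRB-ArrayTools, which served as an alternative. Probe positions in the file headers are on build mm9.

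Here the log2 of the processed signal was centred on the median of each array. Spots flagged as non-uniform were left out, spots of a probe were averaged, and a probe was kept if it was significantly above background on over 75% of the 36 arrays (at least 28), which left 21484 probes. A gene took its brightest kept probe, and 24 of the tested members had several; a kept probe of opposite sign to the call existed for 0 of the 13 called members with several probes after x-rays, 1 of 17, 2 of 16 and 1 of 17 after the mixed fields, 0 of 10 after neutrons and 3 of 13 between neutrons and the 25% field. Each of 10 comparisons was fitted with limma 3.58.1 in R 4.3.3 on its 12 arrays, with moderated variances and Benjamini-Hochberg adjustment over all 17342 genes. The study's own filter on fold-change, which keeps genes past 1.5-fold in at least 20% of arrays, was an alternative, since it selects on the outcome. Other alternatives were upper quartile and quantile scaling, normexp correction (offset 50), other probe rules and filters, blocks for slide, scan session and replicate number, and leaving out each mouse. The models were tested on simulated data, in which 32% of genes changed by 1 log2 unit and 75% of genes changed by 2 were recovered for x-rays against controls, with 2 unchanged genes called among 17301. Genes were named by rule: the Sdh genes, core and catalytic members, isoform groups, Ndufaf genes, the 3 largest rises and falls among called members in each comparison, and members called in all 5 exposures; others are named only as parts of a counted group or as said. The members and lists were chosen with earlier results of these data known. Symbols were checked against RefSeq accessions, which matched for 118 of 122 kept probes. No array file repeated another in any of 630 pairs. The p-values measure the spread between 6 mice a group, and array number limits the precision. Replicate numbers did not pair mice: the mean correlation of deviations between same-numbered mice was 0.04 over 90 pairs (range -0.75 to 0.73).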

Additional observations from a re-analysis of the deposited data

Results flagged for a closer look

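A mouse standing far from the other 5 of its group was looked for in 138 sets of values, by the gap to its nearest neighbour over the group's range, against Dixon's 95% critical value for 6 samples. Chance alone passes about 1 set in 20. The median shift of all members relative to all genes in the 15% field passed at 0.626 through replicate 2, which stood at 1.81 with the next mouse at 1.19. Complex I (0.703) and complex II (0.792) in that group, and Sdhc (0.663), passed through the same mouse, Sdhc at 7.60 with the next at 6.01. In the 25% field replicate 5 was high for Cox7a2 (0.693), Ndufa1 (0.675), Uqcrh (0.759) and Atp5b (0.806), standing at 13.61 for Atp5b with the next mouse at 12.44. Replicate 5 of the x-ray group was low for Uqcrb (0.628) and Sdhb (0.668). Complex III after the 5% field (0.651) was low in replicate 5, and Cox6b2 was low in replicate 3 of the 5% group (0.641) and high in replicate 3 of the controls (0.724). Atp5j was high in replicate 6 of the controls (0.644).

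Direct tests between exposures called 1 member between the 15% field and x-rays, 2 between the 25% field and x-rays, 27 between neutrons and x-rays and 44 between neutrons and the 25% field.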

How the results depend on the processing

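Of 211 counts and medians recomputed with every mouse kept, 144 kept their direction and size class, 65 moved and 2 reversed. The limit that matters most is the background correction. With normexp, the p under 0.001 call was met by 1, 0, 14, 1 and 0 members higher and 1, 0, 0, 0 and 0 lower after x-rays, the 5%, 15% and 25% fields and neutrons, and by 0 members between the 15% field, the 25% field or neutrons and x-rays, or between neutrons and the 25% field. The members' median minus that of all genes, called the median shift below, became 0.197 after x-rays, 0.656 after the 25% field, -0.133 after the 5% field and -0.654 after neutrons. Of called members, 40 of 50 turned sign after the 5% field, 1 of 51 (Atp5a1) after the 25% field and 21 of 41 after neutrons. Those followed by name were, after the 5% field, Atp5e -0.40, Atp5h -0.65, Atp5l -0.047, Cox6a1 -0.29, Cox6b1 -0.060, Cox6c -0.23, Cox7b -0.074, Cox8a -0.64, Ndufa2 -0.48, Ndufa3 -0.95, Ndufa4 -0.35, Ndufb9 -0.91, Uqcr10 -0.29 and Uqcrh -0.19. After neutrons they were Atp5b -0.27, Atp5e -0.94, Atp5h -0.73, Atp5j2 -0.56, Atp5k -0.64, Cox6a1 -0.39, Cox6b1 -0.46, Cox6c -0.35, Cox7a2 -0.35, Cox7b -0.14, Cox8a -0.43, Ndufa1 -0.18, Ndufa2 -1.09, Ndufa3 -0.87, Ndufa4 -0.85, Ndufb11 -0.69, Ndufb9 -0.89, Uqcr10 -0.22, Uqcr11 -0.99 and Uqcrh -0.21. The cause was not tested; the span from the median to the 99th percentile varied between arrays of a group by SDs of 0.37 to 2.31 with normexp against 0.08 to 0.47 without. With normexp and quantile normalization, added after seeing the data, median shifts were 0.385, 0.658, 0.572, 0.703 and 0.08, 6 members fell after x-rays, 2 after the 15% field and 26 after neutrons, and 3 and 0 were called between the 15% and 25% fields and x-rays. Quantile normalization alone gave median shifts of 0.823 and 0.892 after the 5% and 25% fields, and 0 and 1 calls of the 15% and 25% fields against x-rays. Upper quartile scaling, which moved the median of all genes by 0.133 to 0.345, gave 38 members higher after neutrons, 1 lower after x-rays and 1 called in the 25% field against x-rays. The deposited log2 table, with 74 members, gave 30 higher and 2 lower after the 5% field (median shift 0.955), 26 and 3 after the 15% field, 11 and 34 after neutrons (median shift 0.033), 0 calls of the 15% field against x-rays, and -0.235 for Atp5k after neutrons. The median of all genes after neutrons was -0.452 in that setting. Among called members, Ndufv3 turned sign there after the 5%, 15% and 25% fields, and Sdhb after the 15% field. The 1.5-fold filter gave 1 lower after x-rays, 2 lower after the 15% field and 1 call of the 25% field against x-rays, and requiring all 36 arrays above background gave 4 calls of the 15% field.

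With slide as a block, 24 members were higher and 1 lower after x-rays, 0 and 0 after the 5% and the 15% field, 0 called between the 15% field and x-rays and 22 between neutrons and the 25% field. With session as a block, 1 was lower after x-rays, 0 higher and 0 lower after the 5% field, 1 and 0 after the 15% field, and 0 called between the 15% field and x-rays. With replicate number as a block, 1 was lower after x-rays, 0 after the 5% and 15% fields, 4 were called between the 25% field and x-rays and 15 between neutrons and x-rays, with other counts within 1.5 times. Leaving out 1 mouse at a time, members higher ran from 37 to 47, 44 to 49, 41 to 46, 47 to 50 and 24 to 25 over the 5 exposures, members lower from 1 to 3, 0 to 1, 0 to 1, 0 to 1 and 13 to 17, and median shifts (members minus all genes) from 0.777 to 0.928, 1.075 to 1.236, 0.965 to 1.096, 1.172 to 1.353 and 0.178 to 0.251. Calls between exposures ran from 0 to 1, 0 to 10 (10 without replicate 3 of the 15% field) and 0 to 2 for the 5%, 15% and 25% fields against x-rays, 21 to 42 for neutrons against x-rays and 39 to 45 for neutrons against the 25% field.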
